A study of Mus musculus with 335 samples.

Results

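The 10 genes described here belong to the MHC class I antigen presentation pathway and were followed through a collection of mouse models of metastatic mammary cancer. They are B2m, H2-K1, H2-D1, Tap1, Tap2, Tapbp, Psmb8, Psmb9, Psmb10 and Nlrc5. The members were chosen by symbol, and all 10 were found among the 20188 genes of the deposited expression table. Values are RPKM, that is reads scaled to the length of the transcript and the size of the library. The scaling takes no account of which genes make up the RNA of a sample. Comparisons between unlike tissues can depend on it, as for M6 liver metastases and adjacent liver below.

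MHC class I molecules show peptides from inside the cell to cytotoxic T cells. Proteasomes cut cellular proteins into peptides, and the inducible catalytic subunits Psmb8, Psmb9 and Psmb10 replace the constitutive Psmb5, Psmb6 and Psmb7 to form the immunoproteasome. The transporter Tap1 and Tap2 carries the peptides into the endoplasmic reticulum, where tapasin (Tapbp) holds the transporter close to empty class I molecules. The heavy chains H2-K1 and H2-D1 fold with B2m, the light chain, and travel with a peptide to the cell surface. Nlrc5 is a transactivator of class I genes, and interferon gamma is the best known inducer of the pathway. Loss of its members is a known route by which tumours escape from T cells.

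The study collected 335 RNA-seq libraries, of which 131 came from primary mammary tumours, 130 from lung metastases, 27 from metastases of liver, spleen or brain, 24 from cultured tumour lines and 23 from tissue without tumour. Its stated purpose was to describe expression that is particular to metastases and how it varies between models. All samples were untreated, and tissue was snap-frozen. Libraries of 1 tissue of 1 animal were averaged, which gave 281 profiles in 61 groups.

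Allograft models began from cultured mammary tumour lines, given orthotopically (into the mammary gland), by tail vein or by intracardiac injection. Among them 4T1, 4T07, 67NR, EMT6, D2A1, F311 and TSAE1 carried the strain entry BALB and an unknown driver. E0771 was labelled BL6 and R3T 129S1J, again with an unknown driver, and HRM1 was labelled FVB with Pik3ca. The line 6DT1 was labelled FVB and cMyc, Mvt1 FVB and cMYC / VEGF, and Met1 FVB and PyMT (polyoma middle T antigen). M6 was labelled SV40T, with the strain entry REAR for its orthotopic tumours and their metastases, FVB for intracardiac injection and BALB for its cultures. In the transgenic models tumours arose in the animal. MMTV-PyMT mice were labelled FVB, BL6, BL10, CAST or MOLF, and MMTV-Myc (cMYC) and MMTV-neu (Neu) mice FVB. The MMTV promoter drives these transgenes mainly in mammary epithelium, and the 3 C3Tag mice carried SV40T and the strain entries C3Tag, FVB and FVG. Wild type FVB mice gave healthy lung and liver. Each allograft model rests on 1 line, and neither the age of the animals nor the immune status of the hosts is given in the sources used here.

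These strains bear on the members directly, because class I heavy chains are among the most variable genes between mouse strains. Reads were aligned to mm9, a C57BL/6 genome, while the other strains named can carry other alleles of H2-K1 and H2-D1. Both genes also have close relatives among the H2-Q and H2-T genes, with which reads can be shared. Values of H2-K1 and H2-D1 are therefore uncertain between strains, and the part of read alignment in any difference was not tested.

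The stretch before a gene's start is where the factors that induce class I genes bind, so the promoters of B2m and H2-K1 are shown before the values. Sequences are from RefSeq on GRCm38.p6 and run 5′ to 3′ on the strand of the gene. Capitals in the B2m promoter (chr2:122147437-122147685, forward strand) mark a match to the interferon-stimulated response element, searched on both strands as GAAA, any 2 bases and GAAA, and a CCAAT box read on the other strand as ATTGG.
B2m: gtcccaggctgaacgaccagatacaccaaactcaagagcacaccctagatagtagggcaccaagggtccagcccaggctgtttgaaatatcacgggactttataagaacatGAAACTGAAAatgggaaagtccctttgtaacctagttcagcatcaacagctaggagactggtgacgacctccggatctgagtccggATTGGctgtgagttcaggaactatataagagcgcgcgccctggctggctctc
Capitals in the H2-K1 promoter (chr17:34000348-34000597, reverse strand) mark an NF-kappa B palindrome, GGGGA, then A or T, then TCCCC, searched on both strands, and again ATTGG.
H2-K1: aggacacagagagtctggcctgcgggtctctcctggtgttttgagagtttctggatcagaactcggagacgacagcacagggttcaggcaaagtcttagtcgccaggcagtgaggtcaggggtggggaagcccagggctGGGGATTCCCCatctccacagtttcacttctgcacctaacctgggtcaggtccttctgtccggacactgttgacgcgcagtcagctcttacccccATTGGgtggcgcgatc
Windows around the same palindrome in H2-D1 (chr17:35262914-35262943, forward strand) and around an interferon gamma activated site, TTCNNNGAA, in Psmb8 (chr17:34198088-34198117, forward strand) follow, since no other member with a promoter entry held these letters.
H2-D1: cccagggctGGGGATTCCCCatctcctcag
Psmb8: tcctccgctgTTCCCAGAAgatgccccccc
Promoter entries were matched for 8 members, and the 250 bases before the start were searched in each. For H2-D1, Tap1, Tapbp, Psmb8 and Psmb9 all 250 bases lay within annotated exons, so their matches lie in exon sequence. The response element lay 139 bases before the start of B2m, and 3.46% of 27025 promoters hold a match. The activated site lay 97 bases before the start of Psmb8, and 8.13% of promoters hold one. A palindrome was found 111 bases before the start of H2-K1 and 171 before that of H2-D1, among 9 genes in all or 0.0333% of promoters. A CCAAT box was present in 6 of the 8 (B2m, H2-K1, H2-D1, Tap1, Tapbp and Psmb9) and in 37.5% of promoters. No match overlapped another in the sequences printed. Tap1 and Psmb9 lie head to head on chromosome 17, with 225 bases between their starts, so that their promoters are 1 shared stretch. A match describes letters in this window and shows neither binding nor use.

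Counted reads per library ran from 8106344 to 54906212 with a median of 27175852. At that median 1 RPKM of Nlrc5 stood for 230.8 reads, of Psmb8 for 91.9 and of B2m for 23.4, so levels under 0.1 RPKM rest on few reads. Labelled tissues carried their defining markers with few exceptions. By title, 3 libraries used as primary tumours are named lung met. PyMT tumours of BL6 held Sftpc, an alveolar gene, at a mean of 109 RPKM, against 0.340 to 1.25 in PyMT tumours of the other strains. Epithelial markers, summed over the list, were near 0 in 67NR tumours (mean 2.79 RPKM) and cultures (2.55), against group means of 79.2 to 2177 in the other orthotopic tumours. The 2 brain metastases held summed brain markers of 1644 and 2442 RPKM and low epithelial markers (6.91 and 27.5). The 1 mouse labelled with an intracardiac M6 lung metastasis gave 2 libraries. Their mean held hepatocyte markers at 7728 RPKM and alveolar markers at 45.01, which goes against the label. The 1 Met1 tail vein lung metastasis held alveolar markers at 89107 RPKM, beside 53643 to 88864 in healthy lung. Lists of other pathway genes and of cell type markers are given beside the members below.

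Cultured cells held less of the pathway than the orthotopic tumours grown from them in 7 tumour lines, with few exceptions by gene. Differences below are log2 differences of log2(RPKM + 1), fitted with limma over all genes, and called means an adjusted p under 0.05 over all genes tested. Over the 7 line means all 10 members were higher in tumours, while 12.3% of all 10735 genes tested were. Their median difference was 1.68, beside -0.04 over all genes. Psmb9 and Psmb8 differed most, and the tapasin gene least. Nothing comparable was seen in the constitutive subunits, of which 0 of 3 were called, with a median difference of -0.0021. The test over lines took each line as independent, although the sister lines 4T1, 4T07 and 67NR come from 1 mammary tumour. The SE and adjusted p values over the 7 lines, here and below, can therefore be too small. How much they depend on this was not tested.

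**Figure D1:**
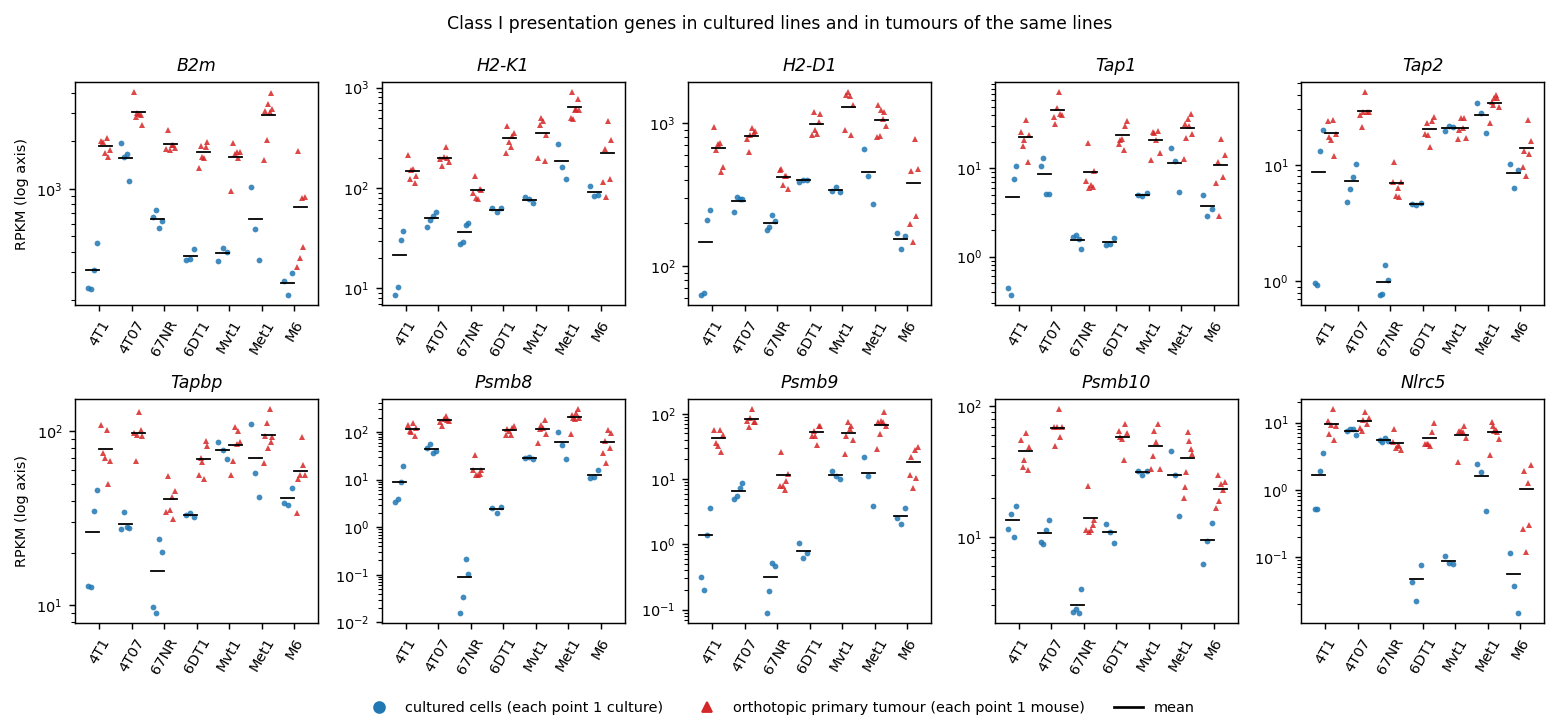
Levels of the 10 members (RPKM, log axis) in cultured cells (circles, 1 per culture) and orthotopic primary tumours (triangles, 1 per mouse) of 7 lines, with a bar at each mean. Cultures lie below tumours for Psmb9 in every line. Overlaps include Psmb8 in Met1, Tap2 in 4T1, Mvt1 and Met1, Tapbp in Mvt1 and Met1, and Nlrc5 in 4T07 and 67NR.

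Psmb9, the inducible partner of Psmb6, showed the largest mean difference, 3.22 ± 0.34 (SE, 7 lines, limma adjusted p = 0.000194). In 4T1 cultures its level was 0.314, 0.198, 1.40 and 3.61 RPKM, while the 6 tumours ran from 26.0 over a median of 41.7 to 56.2. The 6DT1 cultures held 1.04, 0.629 and 0.739 RPKM against 33.6, 49.8 and 66.1 as lowest, median and highest of 6 tumours. No culture of these lines came near its tumours. Met1 cultures stood higher, at 22.0, 11.0 and 3.93 RPKM, and its 7 tumours ran from 29.4 to 106, so the groups lay closer there without overlap.

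Psmb8, the inducible counterpart of Psmb5, differed by 2.94 ± 0.40 over the lines (adjusted p = 0.00106). It was almost silent in cultured 67NR cells, at 0.0161, 0.0345, 0.215 and 0.102 RPKM, which rests on few reads in each culture. Its 67NR tumours held 12.3, 14.8 and 32.3 RPKM as lowest, median and highest of 6. The 6DT1 difference of 5.00 ± 0.15 (adjusted p = 5.83e-08) rested on cultures of 2.55, 1.97 and 2.66 RPKM and tumours from 85.5 to 133. In 67NR and 6DT1 alike the groups were far apart. The ratio of Psmb8 to Psmb5 had a mean of 0.0454 ± 0.0101 (SD, n = 3) in 6DT1 cultures and of 2.37 ± 0.427 (n = 6) in the tumours. In 4T07 the same ratio was 0.726 ± 0.0921 (n = 4) in cultures and 3.62 ± 0.383 (n = 6) in tumours.

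Psmb10, the third inducible subunit, differed by 1.53 ± 0.26 (adjusted p = 0.00364). Mvt1 cultures, at 32.3, 30.1 and 31.9 RPKM, lay just under the lowest of its tumours, which ran from 33.1 to 72.8. Its difference in that line, 0.58 ± 0.25, had an adjusted p of 0.104.

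B2m, the light chain of every class I molecule, differed by 1.84 ± 0.19 (adjusted p = 0.000201). Cultured 4T1 cells held 236, 234, 306 and 458 RPKM, and the tumours ran from 1584 over 1869 to 2106. Cultured 4T07 cells were the exception among cultures, at 1933, 1579, 1667 and 1113 RPKM, yet their tumours were higher still, from 2521 over 2945 to 4085. In both lines the groups did not overlap.

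The heavy chains followed. H2-K1 differed by 1.93 ± 0.21 (adjusted p = 0.000215) and H2-D1 by 1.5 ± 0.17 (adjusted p = 0.000301). In 4T1 cultures H2-K1 was at 8.61, 10.4, 30.7 and 37.4 RPKM, below its tumours at 111, 141 and 213 (lowest, median and highest). The groups did not overlap.

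Among the peptide loading genes the lines went apart. Tap1, the transporter chain whose promoter Psmb9 shares, differed by 2.05 ± 0.24 (adjusted p = 0.000433) and was called in 6 of the 7 lines. Tap2, the other chain, differed by 1.2 ± 0.27 (adjusted p = 0.0148), but not in Mvt1, where cultures held 19.6, 21.4 and 21.3 RPKM and tumours 16.8, 20.4 and 25.1 as lowest, median and highest. That line's difference was -0.02 ± 0.14 (adjusted p = 0.945). Tapbp differed by 0.98 ± 0.21 (adjusted p = 0.0118) and by 0.07 ± 0.20 in Mvt1, where the groups overlapped as well.

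Nlrc5 differed by 1.47 ± 0.36 (adjusted p = 0.0187). It was near 0 in cultures of 6DT1 (0.0421, 0.0224 and 0.0752 RPKM), Mvt1 (0.104, 0.0820 and 0.0784) and M6 (0.115, 0.0374 and 0.0150). The 6DT1 tumours ran from 4.42 over 4.76 to 9.87 RPKM and those of Mvt1 from 2.58 over 7.31 to 8.94. Cultured 67NR cells by contrast held 5.45, 5.16, 5.95 and 5.31 RPKM, and their tumours 3.88, 4.52 and 7.99. There the groups overlapped, with a difference of -0.13 ± 0.16 (adjusted p = 0.56). In the same 67NR cultures Psmb8 and Psmb9 were near 0. Without 4T1, the shared difference of Nlrc5 had an adjusted p of 0.0559.

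Line by line, 10 members were higher in tumours of 4T1 (28.3% of all genes) and of 6DT1 (27.2%). In 4T07 (18.7%) and in 67NR (26.7%) 9 were higher, all except Nlrc5. In Mvt1 (18.5%) and Met1 (14.2%) 7 were higher, and Tap2, Tapbp and Psmb10 were not called. In M6 (13.6%) 3 were higher, namely Psmb8, Psmb9 and Psmb10, which differed by 2.02 ± 0.46, 2.22 ± 0.42 and 1.25 ± 0.23 with adjusted p of 0.0096, 0.00436 and 0.00321. M6 tumours spread widely, with B2m at 319, 1739, 364, 871, 427 and 886 RPKM over its cultures at 262, 213 and 293.

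Other genes of the pathway were split by kind. Among 13 further class I genes, such as H2-Q7, H2-T10 and H2-M3, 11 were higher in tumours over the 7 lines, and of 5 proteasome activator genes 3. Of 16 interferon gamma pathway genes tested 13 were higher (median 1.47), and of 22 type I interferon-stimulated genes 10 (median 0.89). Of 11 structural subunits of the proteasome core 0 were called, and of 10 genes of peptide loading and trimming 2 were higher and 1 lower. Leukocyte markers moved with the members, with 7 of 7 tested higher and a median of 4.24. Their summed level was 0.393 to 1.51 RPKM in cultures and 80.5 to 478 in tumours as group means, and Ptprc, the pan-leukocyte gene, did not pass 0.06 RPKM in any culture. Markers of fibroblasts (8 of 9, median 4.44), macrophages (10 of 10) and endothelium (7 of 8) were higher as well, as were 5 of 5 MHC class II genes. Of 9 epithelial markers 0 were called. The part of all these cells in the differences was not tested. In bulk tissue fewer cells of a kind and less RNA per cell cannot be told apart.

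Tumours and cultures of 4T07, 67NR, 6DT1 and M6 came from different library series by their names, so series and tissue cannot be told apart there. A series here is a prefix shared by library names. In Met1 8 members were called without culture replicate 1, Tapbp among them, and 6 without culture replicate 2 or 3, where Tap1 was not called. Within 1 series 9 members were called in 4T1, 7 in Mvt1 and 6 in Met1, with 2 cultures each. Tap2 of 4T1 (0.16, adjusted p = 0.621) and Tap1 of Met1 (0.85, adjusted p = 0.142) were then not called.

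The sister lines 4T1, 4T07 and 67NR come from 1 BALB/c mammary tumour, and they differed from each other in the members both in culture and as tumours. In culture 7 members were higher in 4T07 than in 67NR (20.1% of genes), and 6 were lower in 4T1 than in 4T07 (18.6%). Between 4T1 and 67NR 3 members were higher (23.4%) and 3 lower (22.4%), both near the share among genes at large. An F test over the 7 lines called all 10 members, as it did 82.2% of all genes.

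Psmb8 separated the sister cultures most. It held 47.2, 56.9, 36.0 and 39.9 RPKM in 4T07 against 3.46, 3.98, 8.76 and 19.3 in 4T1 and under 0.3 in every 67NR culture. No 2 of the lines overlapped. The difference of 4T07 from 67NR was 5.38 ± 0.37 (adjusted p = 2.76e-10) and that of 4T1 from 67NR 2.90 ± 0.37 (adjusted p = 1.96e-06). Nlrc5 went another way, at 7.58, 7.95, 8.10 and 6.42 RPKM in 4T07, near the 67NR values given above, and at 0.524, 0.516, 1.93 and 3.57 in 4T1. Its difference of 4T1 from 67NR was -1.45 ± 0.27 (adjusted p = 0.000166), without overlap. B2m was lower in 4T1 than in 67NR by the same test (-1.12 ± 0.26, adjusted p = 0.00122), where cultures held 667, 732, 569 and 630 RPKM.

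The 4 cultures of 4T1 fell into their 2 library series. Tap1 was at 0.438 and 0.366 RPKM in one series and at 7.66 and 10.7 in the other, and Tap2 at 0.964 and 0.932 against 13.2 and 19.9. In the series that all sister lines share, Tap1 was lower in 4T1 than in 67NR (-0.95, adjusted p = 9.12e-06), while over both series its difference was 0.56 ± 0.53 (adjusted p = 0.414). In that series 10 members were lower or higher between 4T1 and 4T07 in place of 6, with 2 cultures a line.

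As tumours all 10 members were higher in 4T07 than in 67NR (27.5% of genes, member median 1.58), and 9 were higher in 4T1 than in 67NR (31.7%, member median 1.09). Between 4T1 and 4T07 7 were lower in 4T1 (19.6%). By their names these tumours came from 1 library series, and the names do not say whether a series was 1 batch. Psmb8 again differed most, with 135, 178 and 218 RPKM (lowest, median and highest of 6) in 4T07, 81.2, 113 and 151 in 4T1 and 12.3, 14.8 and 32.3 in 67NR. The 67NR tumours stood below both sisters without overlap, by 3.35 ± 0.20 against 4T07 (adjusted p = 7.61e-11) and 2.75 ± 0.20 against 4T1 (adjusted p = 1.09e-09). B2m did not follow Psmb8. It ran from 1769 over 1843 to 2348 RPKM in 67NR tumours and from 1584 to 2106 in 4T1, overlapping with a difference of -0.05 ± 0.11 (adjusted p = 0.731).

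Of 8 leukocyte markers 2 were higher in 4T07 tumours than in 67NR tumours, with a median of -0.01. T and NK cell markers were higher in 0 of 13 and lower in 3. Neutrophil markers were higher in 7 of 9 (median 1.68) and MHC class II genes in 7 of 7, while macrophage markers were lower in 7 of 10 and endothelial markers in 9 of 9. In 4T1 tumours against 67NR tumours neutrophil markers were higher in 8 of 9 and epithelial markers in 9 of 9, and macrophage markers were lower in 7 of 10. The part of these cells in the members' differences was not tested. In 4T07 tumours interferon gamma pathway genes were higher in 15 of 19 and lower in 2, and type I interferon-stimulated genes higher in 18 of 22. One 67NR tumour, replicate 2, stood apart, with Tap1 at 19.5 RPKM against 5.94 to 9.43, Psmb9 at 26.3 against 6.88 to 11.8 and Ptprc at 20.0 against 10.1 to 14.0. Without it 10, 9 and 7 members were still called in the comparisons above.

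Over all 22 tumour groups the members spanned wide ranges. Nlrc5 spread most, from a mean of 0.557 RPKM in HRM1 to 17.1 in EMT6, or 30.7-fold. Tap1 spanned 19.6-fold, from 4.09 RPKM in HRM1 to 80.3 in TSAE1, and Psmb9 19.1-fold, from 8.39 in Myc to 160 in EMT6. B2m spanned 10.4-fold, from 350 RPKM in PyMT tumours of MOLF to 3635 in EMT6. Tap2, at 6.67-fold from 5.73 RPKM in HRM1 to 38.2 in TSAE1, spanned least.

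**Figure D2:**
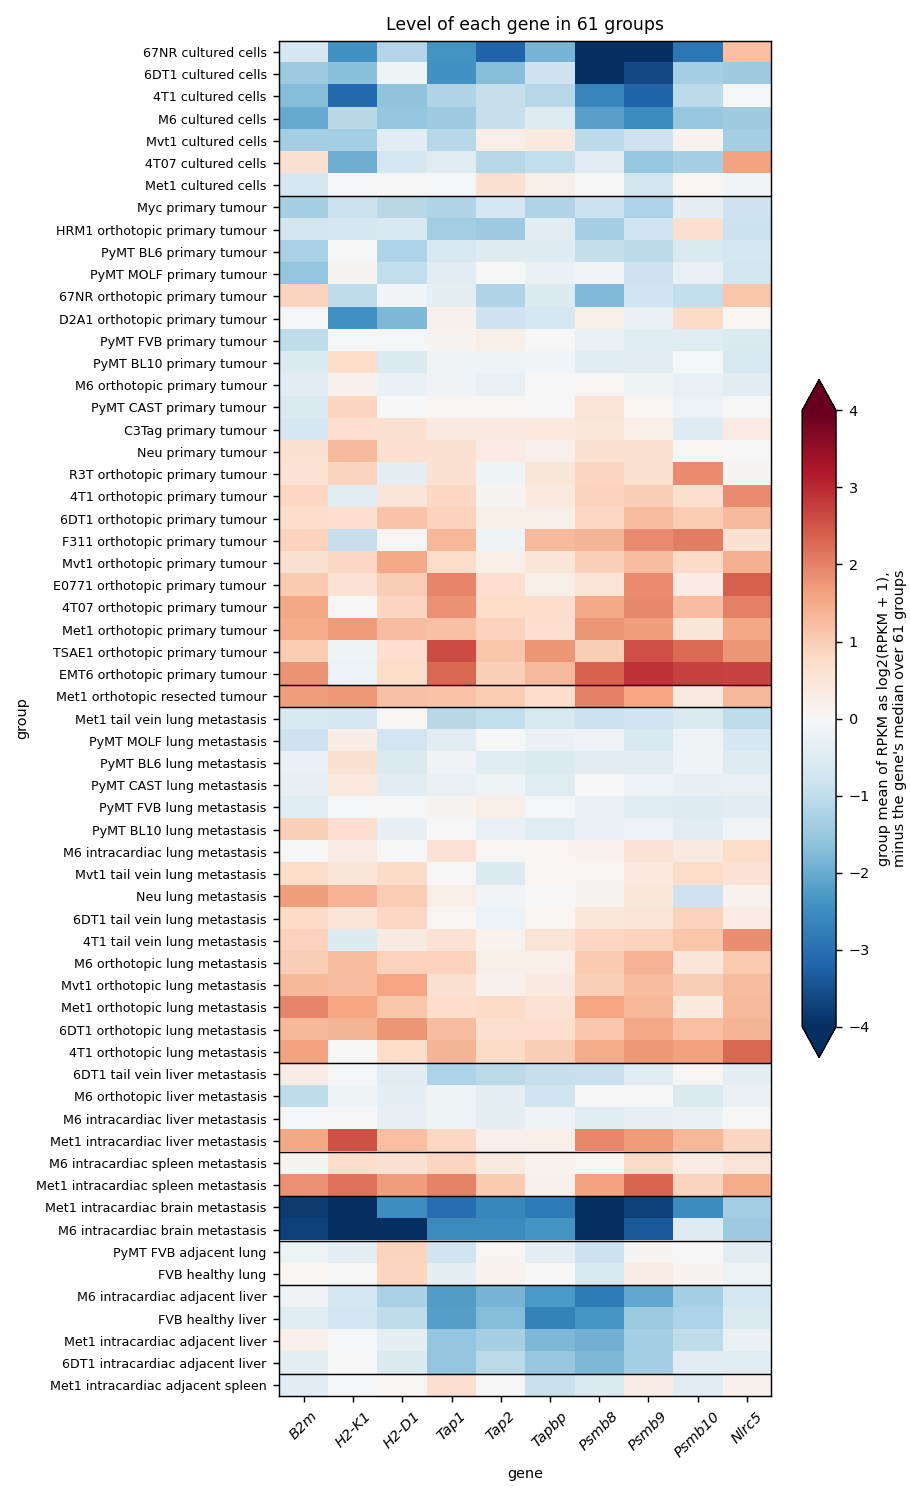
Mean level of each member in the 61 groups, as log2(RPKM + 1) minus the median of the member over groups, with red above and blue below it and colours clipped at -4 and 4. Within each tissue groups are ordered by their mean. All 10 members lie below their median in cultures of 4T1, 6DT1 and M6 and in both brain metastases, and EMT6 or TSAE1 hold the highest tumour mean for 8 members.

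EMT6 tumours led for B2m, Psmb8, Psmb9, Psmb10 and Nlrc5. Their 4 mice held Psmb8 at 297 to 336 RPKM and Nlrc5 at 14.3 to 20.8. TSAE1 led for Tap1, Tap2 and Tapbp, the latter at 151 to 248 RPKM in 4 mice. Met1 led for H2-K1, with a mean of 638 RPKM, and Mvt1 for H2-D1, with 1306. D2A1, another BALB line, was lowest for both heavy chains, at means of 35.7 and 131 RPKM. Mean Ptprc was highest in EMT6 too, at 29.4 RPKM against 1.74 to 16.2 in the other tumour groups. EMT6, TSAE1 and D2A1 came from 1 library series by their names, which 4T1, 6DT1, Mvt1 and Met1 tumours do not share. The part of leukocytes or of series in this order was not tested.

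Neighbours in the order of tumour levels were mostly within each other's spread. In 21 groups with 3 or more mice, 20 neighbouring pairs were compared per member, and 0 to 2 of them lay apart by more than the combined SD. For B2m the only such step was from 4T07 to EMT6, and for Tapbp that from EMT6 to TSAE1. For H2-K1 the steps were from D2A1 to 67NR and from R3T to Met1, and for Psmb8 from E0771 to 6DT1 and from Met1 to EMT6. H2-D1, Tap1, Tap2 and Nlrc5 had no such step, so their order is a gradual one.

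Across the 61 group means, the 45 pairs of members correlated with a Pearson r from 0.39 to 0.94 and a median of 0.75. Across the 24 cultures r ran from -0.42 to 0.91 with a median of 0.60. In the primary tumours, as deviations from the group mean, it ran from 0.31 to 0.93 with a median of 0.70. Points share libraries, depth and, within a line, their source, so these values are descriptions. The genes nearest in pattern to B2m over the 61 group means were H2-Q7 (r = 0.88), H2-T10 (0.83), Ifi47 (0.83), H2-Q1 (0.83) and H2-Q6 (0.80). Nearest to Nlrc5 were H2-Q7 (0.86), H2-Q6 (0.84), Gbp5 (0.83), Cxcl10 (0.82) and Gm12250 (0.81). Nearest to Psmb8 were Ifi47 (0.88), Psme1 (0.87), H2-T10 (0.86), Igtp (0.85) and Zbp1 (0.84). Over the 24 cultures the lists were mostly other genes. H2-Q6 was first for Nlrc5 there too (r = 0.94), followed by Lpar1 (0.92), Tspan15 (0.91), Cst6 (0.90) and H2-K2 (0.90). Nearest to B2m in cultures were Bdh2 (0.88), Aldh3a2 (0.85), Gm15097 (0.85), Gm10439 (0.84) and Gm15107 (0.84). Nearest to Psmb8 were 9230110C19Rik (0.90), Parp12 (0.89), 2700081O15Rik (0.89), Tmem176a (0.89) and Tmem176b (0.88).

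Lung metastases were compared with primary tumours of the same mice in 5 allograft and 5 PyMT models. B2m rose in the metastases of 3 models and was higher on average in 10 of 10. No other member was called over the models together. Within models, 6 members were called higher in 6DT1, 3 in M6 and 2 in 4T1, and none was called lower in any model. Differences that were not called went down as well, with a member median of -0.50 in CAST.

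**Figure D3:**
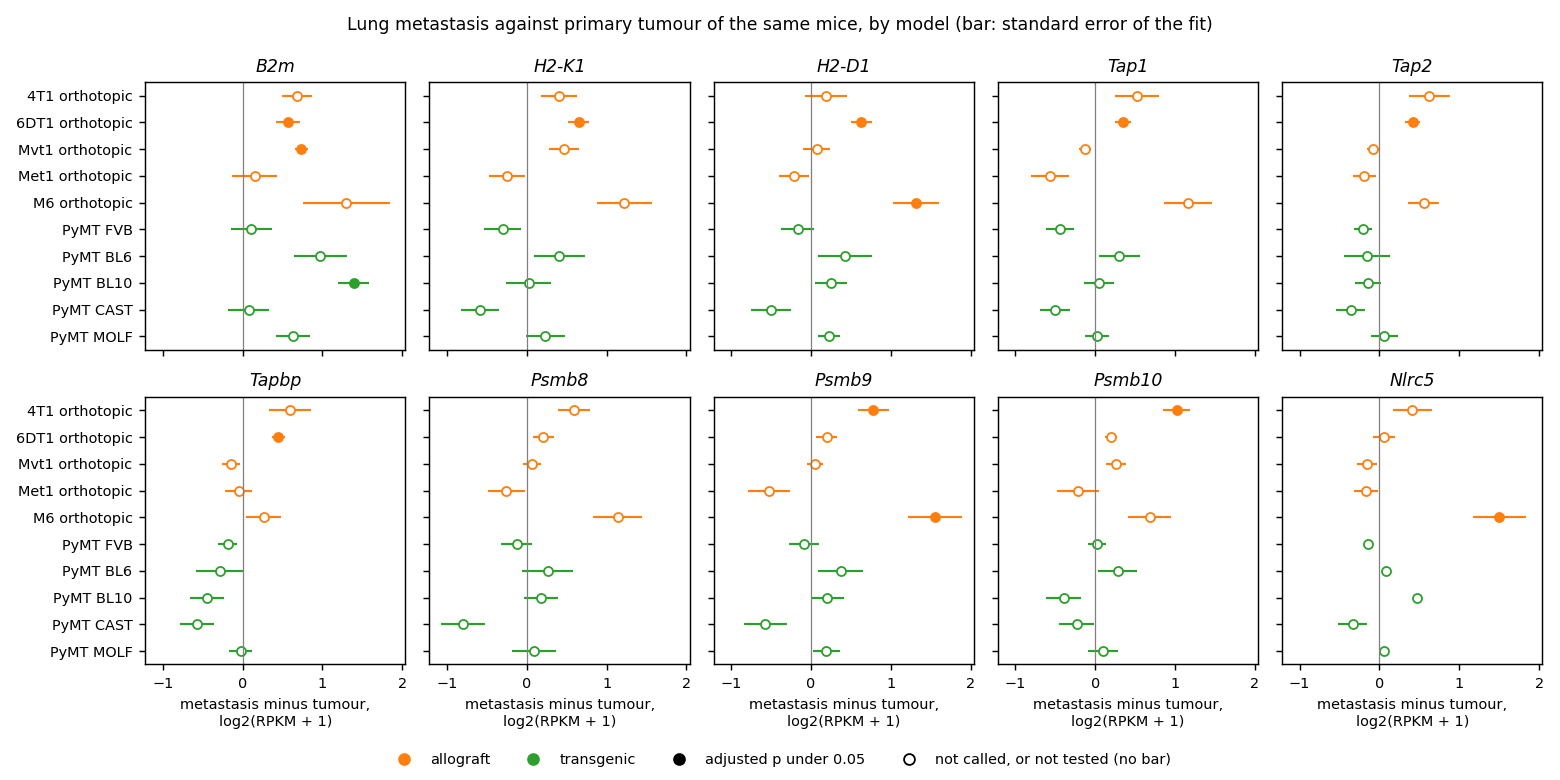
Mean difference of lung metastasis from primary tumour of the same mice, in log2(RPKM + 1), for each member (panels) in 5 allograft (orange) and 5 PyMT models (green). Bars are standard errors, filled points were called, and points without a bar were not tested. B2m lies above 0 in each model, whereas Tap1 lies above 0 in 6DT1 and M6 and below 0 in Mvt1 and Met1.

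Over the 10 model means B2m differed by 0.66 ± 0.13 (SE, limma adjusted p = 0.00305), with 1 of 10 members higher beside 11.7% of all 11467 genes. Members were thus called no more often than genes at large. The other 9 differed by -0.04 to 0.23, each with an adjusted p of 0.255 or more. Markers of leukocytes (7 of 8), neutrophils (9 of 9), endothelium (10 of 10) and alveolar epithelium (10 of 10) were higher by the same test, and their part in the difference of B2m was not tested. Healthy lung itself held B2m at 850 to 1197 RPKM. The difference between allografts and PyMT models called 0 of 10 members and 0.680% of genes.

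In 6DT1 the class I chains and the loading genes rose together, 6 of 10 members beside 19.4% of genes. H2-K1 went from 225, 309 and 419 RPKM (lowest, median and highest of 6 tumours) to 294, 521 and 759 in the metastases, higher in 6 of 6 mice. Its difference was 0.65 ± 0.14 (adjusted p = 0.00807), though the ranges overlap. H2-D1 differed by 0.63 ± 0.13 (adjusted p = 0.00846) and B2m by 0.57 ± 0.15 (adjusted p = 0.0214, higher in 5 of 6 mice). Tapbp differed by 0.45 ± 0.08 (adjusted p = 0.00472), Tap2 by 0.42 ± 0.10 (adjusted p = 0.013) and Tap1 by 0.35 ± 0.10 (adjusted p = 0.0265), each higher in 6 of 6 mice. The inducible subunits differed by 0.19 to 0.20 and Nlrc5 by 0.06, none of them called. Interferon gamma pathway genes were higher in 15 of 18. Markers of endothelium (8 of 8), alveolar epithelium (10 of 10), neutrophils (6 of 6), macrophages (4 of 10) and leukocytes (1 of 8) were higher as well, as were 7 of 9 MHC class II genes, and their part was not tested. Mean Pecam1, an endothelial gene, went from 9.24 to 24.0 RPKM and Cd68, a macrophage gene, from 54.0 to 120.6. Without the pairing of mice 3 members were called, H2-K1, H2-D1 and Tapbp.

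In 4T1 the inducible subunits Psmb10 and Psmb9 rose, 2 of 10 members beside 7.36% of genes. Psmb10 went from 32.4, 43.7 and 62.1 RPKM in the tumours to 77.9, 89.4 and 112 in the metastases. The groups did not overlap, and the difference was 1.02 ± 0.17 (adjusted p = 0.0106). Psmb9 went from 26.0, 41.7 and 56.2 RPKM to 50.4, 73.2 and 88.5, higher in 6 of 6 mice with overlap between mice (0.78 ± 0.20, adjusted p = 0.0375). Psmb8, the other inducible subunit, differed by 0.59 ± 0.20 (adjusted p = 0.0855, higher in 4 of 6 mice) and was called only without the pairing of mice (adjusted p = 0.0274). B2m differed by 0.68 ± 0.19 with an adjusted p of 0.0504. Without the filter on low values Psmb10 was the 1 member called. Beside the members, T and NK cell markers were higher in 4 of 12, leukocyte markers in 3 of 8, macrophage markers in 3 of 10, neutrophil markers in 3 of 9, MHC class II genes in 2 of 7 and alveolar markers in 10 of 10. Mean S100a8, a neutrophil gene, went from 190 to 1194 RPKM, and the part of these cells was not tested.

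M6 had the largest member median of the 10 models and wide spread between mice. H2-D1, Psmb9 and Nlrc5 were called, 3 of 10 members beside 3.65% of genes, and the member median was 1.19. Nlrc5 stood at 0.262, 1.9, 0.12, 1.27, 0.295 and 2.33 RPKM in the tumours of replicates 1 to 6, and at 8.87, 2.77, 2.94, 8.40, 2.22 and 3.66 in their metastases. Each mouse was higher in the metastasis, by 1.5 ± 0.33 on average (adjusted p = 0.0451). Psmb9 differed by 1.55 ± 0.34 (adjusted p = 0.0418) and H2-D1 by 1.32 ± 0.29 (adjusted p = 0.0412). B2m reached 6092 RPKM in the metastasis of replicate 1, against 319 in its tumour. Ptprc moved with the members, from 0.544 to 2.44 RPKM in tumours to 4.64 to 15.5 in metastases, and its part was not tested. No member was called without replicate 3, 4, 5 or 6, nor without the filter on low values, and 2 were called without replicate 1 or 2.

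In Mvt1 members were called no more often than genes at large, 1 of 10 beside 11.2% of genes. Only B2m rose there, by 0.74 ± 0.08 (adjusted p = 0.0026, 6 of 6 mice). Tumours ran from 967 over 1687 to 1953 RPKM and metastases from 1841 over 2762 to 2917, with slight overlap. Tap1 was lower in 6 of 6 mice but by only 0.13 ± 0.07, with an adjusted p of 0.202. In Met1 0 of 10 members and 0.317% of genes were called, and Tap1 differed by -0.57 ± 0.23 (adjusted p = 0.441).

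The PyMT models gave B2m in BL10 alone, 1 of 9 members tested beside 0.973% of genes higher. Its tumours ran from 369 over 724 to 980 RPKM and its metastases from 735 over 1686 to 3450, higher in 6 of 6 mice with overlap (1.39 ± 0.20, adjusted p = 0.0213). Without the filter on low values it was not called. In FVB (1.27% of genes called), BL6 (0.651%) and MOLF (1.10%) 0 of 9 members were called, and in CAST (4.51%) 0 of 10, where the member median was -0.50. Nlrc5 was too low to be tested in FVB, BL6, BL10 and MOLF. Among the 13 FVB mice with lung metastases, of which 12 entered the paired test, 3 held high levels in the metastases. Their B2m was at 2319, 1496 and 2042 RPKM against 279 to 544 in the other 10. The same 3 held Tap1 at 35.9, 21.1 and 44.5 RPKM against 5.37 to 9.35. Their Ptprc, at 0.887, 2.61 and 3.48 RPKM, lay within or below the 2.25 to 11.6 of the others. The part of leukocytes in these levels was not tested.

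Allograft tumours were then set beside transgenic tumours with the same labelled driver and strain. Met1 was compared with PyMT tumours of FVB mice, and 6DT1 with MMTV-Myc tumours. In both all 10 members were higher in the allograft.

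**Figure D4:**
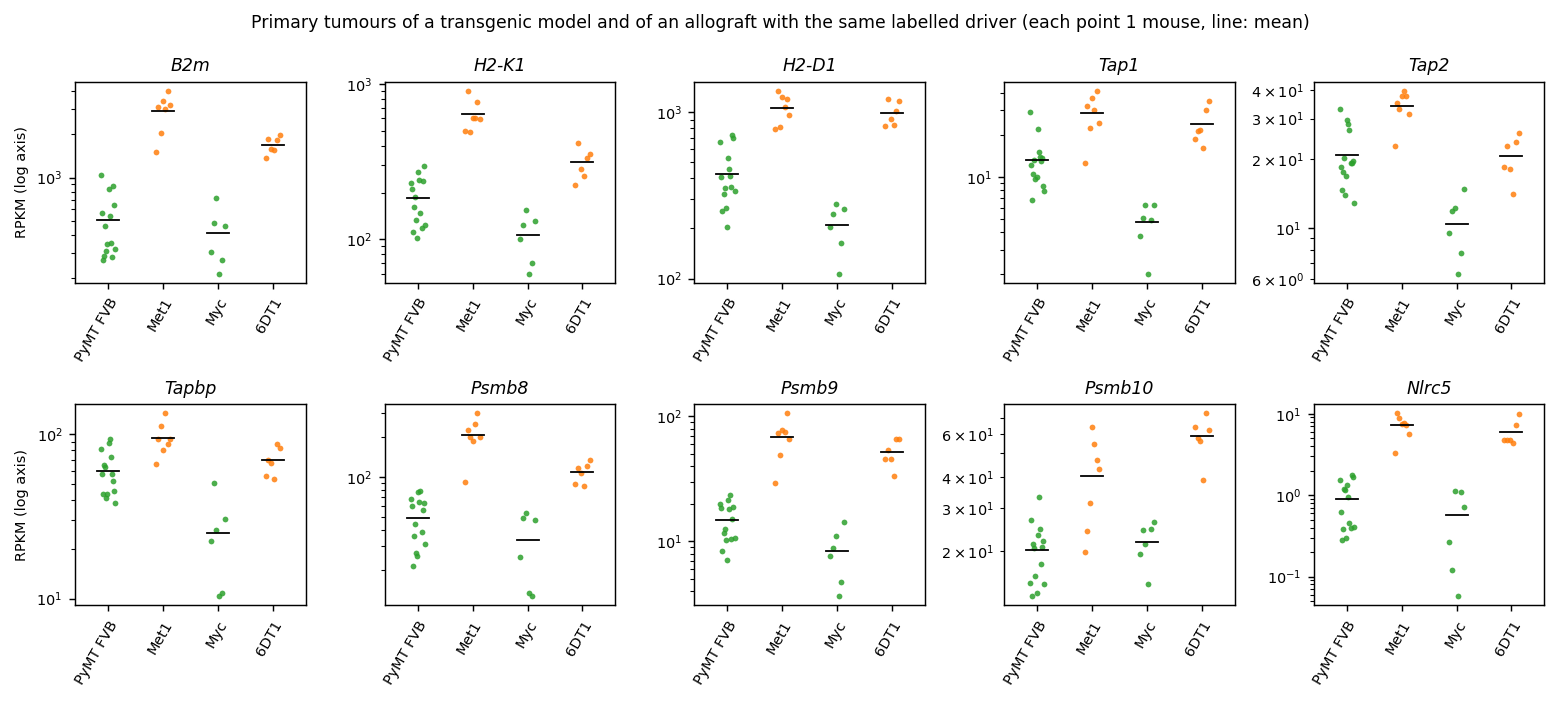
Levels of the 10 members (RPKM, log axis) in transgenic PyMT FVB and Myc tumours (green) and in the allografts Met1 and 6DT1 (orange), 1 point per mouse and a line at the mean. The 6 tumours of 6DT1 lie above all 6 Myc tumours for each member except Tap2.

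Met1 had 10 of 10 members higher beside 12.0% of genes, with a member median of 1.61 and -0.04 over all genes. B2m ran from 1511 over 3086 to 4038 RPKM in 7 Met1 tumours and from 267 over 405 to 1044 in 14 PyMT FVB tumours. The groups did not overlap and differed by 2.60 ± 0.27 (adjusted p = 6.59e-07). Nlrc5 ran from 3.28 over 7.57 to 10.1 RPKM against 0.284, 0.788 and 1.78, again without overlap (2.12 ± 0.19, adjusted p = 1.08e-07). Psmb8 differed by 2.08 ± 0.26 and Psmb9 by 2.12 ± 0.23, while Tap2 and Tapbp differed least, by 0.72 ± 0.16 and 0.68 ± 0.18. Of 22 type I interferon-stimulated genes 0 were called, beside 12 of 17 interferon gamma pathway genes higher, 3 of 7 leukocyte markers higher and 9 of 11 epithelial markers lower. MHC class II genes were higher in 6 of 6, T and NK cell markers in 2 of 3 and macrophage markers in 6 of 10, with 1 lower. Neutrophil markers were lower in 2 of 5 and higher in 0. The part of these cell types was not tested. One Met1 tumour, replicate 4, held Ptprc at 78.7 RPKM against 2.68 to 4.78 in the other 6, and without it all 10 members were still called. Within 1 library series 8 were called, without Tapbp (0.56, adjusted p = 0.117) and Psmb10 (0.91, adjusted p = 0.0627).

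6DT1 had 10 of 10 members higher beside 38.6% of genes, with a member median of 2.00 and 0.16 over all genes. H2-D1 was at 828, 958 and 1190 RPKM (lowest, median and highest of 6) in 6DT1 and at 107 to 280 in the 6 Myc tumours. Psmb9 was at 33.6 to 66.1 RPKM against 3.64 to 14.4. Neither overlapped, and the differences were 2.29 ± 0.21 (adjusted p = 1.06e-06) and 2.57 ± 0.27 (adjusted p = 3.84e-06). Tap2 differed least, by 0.94 ± 0.20 (adjusted p = 0.000955), at 14.1 to 26.0 against 6.33 to 14.8 RPKM. The constitutive subunits went the other way, with 3 of 3 lower (median -1.01) and 11 of 11 structural core subunits lower. The ratio of Psmb9 to Psmb6 was 0.661 ± 0.150 (SD, n = 6) in 6DT1 and 0.0584 ± 0.0165 (n = 6) in Myc tumours. Beside this 8 of 8 leukocyte markers and 22 of 22 type I interferon-stimulated genes were higher, and 10 of 10 epithelial markers lower (median -4.66). The part of these cell types was not tested.

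PyMT tumours of other strains were compared with those of FVB, which serve as the shared control of 4 comparisons. Of the 10 members, 2 were called in BL6, 2 in MOLF, 1 in CAST and 0 in BL10. In BL6 H2-D1 and Tap2 were lower, 2 of 10 members beside 3.79% of genes. H2-D1 was at 143 to 237 RPKM in 6 BL6 mice and at 203 to 727 in 14 FVB mice, with a difference of -1.08 ± 0.23 (adjusted p = 0.00858). Tap2 differed by -0.80 ± 0.21 (adjusted p = 0.024), and both overlapped. In MOLF H2-D1 (-0.85 ± 0.22, adjusted p = 0.00431) and Tap1 (-0.56 ± 0.22, adjusted p = 0.0489) were lower, 2 of 10 beside 24.1% of genes, so that the members were called no more often than genes at large. Tap1 was not called without the filter on low values (adjusted p = 0.0738) or after rescaling by the median ratio (adjusted p = 0.121). In CAST H2-K1 was higher, 1 of 10 beside 7.43% of genes, at 183 to 486 RPKM in 7 mice against 102 to 297 in FVB (0.99 ± 0.22, adjusted p = 0.00539). In BL10 0 of 10 members were called, beside 9.37% of genes, and H2-K1 had a difference of 0.79 ± 0.25 (adjusted p = 0.0545).

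Whether alignment to a C57BL/6 genome moves the heavy chains of FVB, CAST and MOLF was not tested. Within 1 library series 0 members were called in BL6, CAST and MOLF, with as few as 1 or 2 mice on a side. One FVB tumour, replicate 9, carries the strain entry MOLF, and without it 2 members were higher in BL10, H2-K1 (0.82, adjusted p = 0.0402) and Psmb10 (0.48, adjusted p = 0.0371), and 1 was called in MOLF.

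The route of injection was compared among lung metastases of Mvt1, 4T1 and 6DT1. Each member was lower on average after tail vein injection in these 3 lines, and some were called in 2 of them. In Mvt1 6 of 10 members fell, while only 0.262% of all 11068 genes did.

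**Figure D5:**
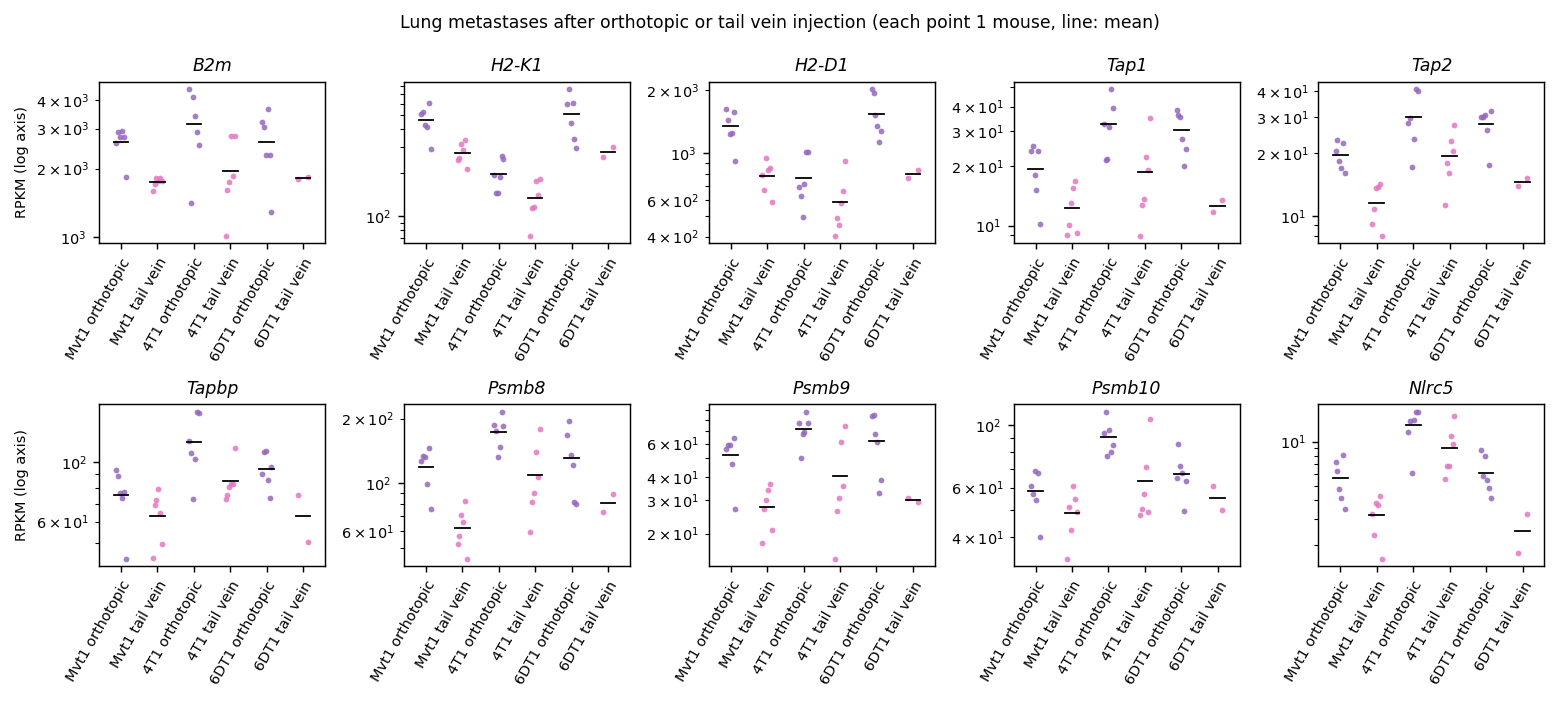
Levels of the 10 members (RPKM, log axis) in lung metastases after orthotopic (purple) and tail vein (pink) injection of Mvt1, 4T1 and 6DT1, 1 point per mouse and a line at the mean. In Mvt1 the 6 tail vein mice lie below all 6 orthotopic mice for B2m and Tap2.

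In Mvt1 Psmb8 ran from 76.1 over 130 to 146 RPKM after orthotopic injection and from 44.5 over 61.3 to 82.5 after tail vein injection of 6 mice each. The groups overlapped slightly, and the difference was -0.92 ± 0.18 (adjusted p = 0.0172). B2m ran from 1841 over 2762 to 2917 against 1587, 1768 and 1825 RPKM, without overlap (-0.58 ± 0.11, adjusted p = 0.019). Tap2 ran from 16.0 over 19.5 to 23.3 against 8.03, 12.2 and 14.2 RPKM, also without overlap (-0.73 ± 0.14, adjusted p = 0.019). H2-D1 differed by -0.78 ± 0.16 (adjusted p = 0.019), H2-K1 by -0.73 ± 0.17 (adjusted p = 0.0335) and Psmb9 by -0.88 ± 0.22 (adjusted p = 0.0444). Tap1, Tapbp, Psmb10 and Nlrc5 differed by -0.25 to -0.68 and were not called. The member median was -0.70, beside 0.07 over all genes.

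No leukocyte marker (of 8, median -0.13), T or NK cell marker (of 13, median -0.21) or interferon gamma pathway gene (of 18, median -0.38) was called in that comparison. With 0.262% of all genes called lower there, the lack of calls in such short lists cannot show that cell content was alike. The part of these cells in the members' differences by route was not tested. Of 13 further class I genes 2 were lower, with a median of -0.72. The 6 tail vein libraries are titled Met1 but carry the line entry Mvt1. Over 200 genes that part the lines they correlated with Mvt1 metastases at r of 0.93 to 0.99 and with those of Met1 at 0.06 to 0.19. Leaving out 1 mouse at a time gave 2 to 7 called members, with 3 without tail vein replicate 2 and 2 without orthotopic replicate 3.

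In 4T1 all 10 members were lower after tail vein injection, by 0.39 to 0.97, but 0 were called beside 5.75% of genes. Psmb8 had the smallest adjusted p, 0.073, with a difference of -0.74 ± 0.23. T and NK cell markers were lower in 6 of 11 (median -1.22), interferon gamma pathway genes in 4 of 18 and neutrophil markers in 2 of 9, and their part was not tested. In 6DT1 4 of 10 were lower, beside 6.02% of genes, with 2 tail vein mice. Tap1 held 11.7 and 13.5 RPKM there against 20.1, 31.5 and 38.6 in orthotopic metastases (-1.17 ± 0.23, adjusted p = 0.0245), without overlap. Tap2, H2-D1 and Nlrc5 differed by -0.86 to -1.03. Leaving out either mouse, or the filter on low values, left 0 called. There T and NK cell markers were lower in 6 of 13 and leukocyte markers in 4 of 8, and their part was not tested.

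Metastases outside the lung were few. M6 liver metastases after intracardiac injection were set beside adjacent liver of the same 5 mice, and 9 of 10 members were higher, as were 81.9% of all genes. Their median, 1.52, lay near the 1.35 of all genes. Psmb8 differed by 2.64 ± 0.20 (adjusted p = 2.34e-09), from 10.4, 5.36, 5.83, 9.05 and 7.68 RPKM in liver to 49.6, 79.0, 28.5, 66.8 and 50.3 in the metastases. B2m did not, at 0.15 ± 0.18. After rescaling by the median ratio of genes, B2m fell by 1.77 (adjusted p = 1.36e-06) and H2-K1 by 1.09, while Psmb8, Tap1 and Tapbp stayed higher.

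Between liver and lung metastases of 3 mice with orthotopic M6 tumours 0 of 10 members were called, beside 8.38% of genes. All members were lower in liver, by 0.42 to 1.28, and without liver replicate 2 H2-K1, H2-D1 and Nlrc5 were called. Leukocyte markers (6 of 8), T and NK cell markers (5 of 5), MHC class II genes (4 of 6), endothelial markers (4 of 10) and alveolar markers (8 of 10) were lower in liver in the same test, and their part was not tested. Met1 spleen metastases of 2 mice held B2m at 4405 and 2933 RPKM, beside 662 and 889 in adjacent spleen. One of these held epithelial markers at only 3.88 RPKM in sum. The brain metastases held the lowest B2m and H2-K1 of all 281 profiles, B2m at 76.9 RPKM in M6 and 71.5 in Met1 and H2-K1 at 6.71 and 6.53. Their Psmb8 was at 2.7 and 1.24 RPKM. With 1 library each and mostly brain markers, they allow no test.

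Tumour-adjacent lung of 5 PyMT FVB mice differed from healthy lung of 4 FVB mice in 1 of 10 members, beside 10.0% of genes lower. That share is no larger than among genes at large. Tapbp stood at 55.6 to 60.1 RPKM in healthy lung and at 39.3 to 52.8 in adjacent lung (-0.35 ± 0.09, adjusted p = 0.0385). It was not called without any 1 of the 4 healthy lungs or without adjacent lung replicate 1 or 4 (adjusted p from 0.0535 to 0.0974), nor after rescaling (adjusted p = 0.0574). The 2 tissues came from different library series by their names, so series and tissue cannot be told apart. Lung metastases of PyMT FVB mice were lower than healthy lung in 3 of 10 members, beside 27.7% of genes, which is about the same share. These 3 were H2-D1 (-1.07, adjusted p = 0.0291), Psmb9 (-0.93, adjusted p = 0.0211) and Psmb10 (-0.68, adjusted p = 0.0036). Markers of endothelium (10 of 10), T and NK cells (12 of 12), leukocytes (7 of 8), B cells (4 of 4) and alveolar epithelium (8 of 10) were lower in the metastases too, and their part was not tested. Leaving out healthy lung replicate 2 or 3 left 1 member called. Resected and final Met1 tumours of 4 mice differed in 0 of 10 members and 0 of 10856 genes by limma.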

How the data were processed

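RNA-seq was made from total RNA on an Illumina HiSeq, and the authors deposited 1 table of RPKM values for 20188 genes. Per the submitters' processing notes, TopHat, DESeq2 and the genome build mm9 were used, and versions, strand and handling of shared reads are not given in the sources used here. How reads shared between related class I genes were counted can change H2-K1 and H2-D1. Counted reads per library were recovered from the steps of low values, from 8106344 to 54906212.

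Libraries of 1 tissue of 1 animal were averaged. Groups were compared with limma 3.58.1 (R 4.3.3, trended and robust) on log2(RPKM + 1), over genes that reached 1 RPKM in a number of profiles no lower than the size of the smaller group. Differences on this scale understate changes of low genes. Benjamini-Hochberg adjustment covered all genes tested, and the threshold was 0.05. Metastases and tumours of 1 animal, named in both labels, were compared with the animal as a block, and in 44 of 68 such pairs deviations from the group means correlated above 0.1. Means over models or lines were tested with 1 value each, and the sister lines 4T1, 4T07 and 67NR were counted as separate lines. Each p-value sets a difference against the spread between the units compared, which are mice, cultures of a line, or means of models or lines. The procedure was checked on simulated data for 6 comparisons. With 100 genes changed by 1 and 100 by 2 on the log2 scale, it recovered 80 and 99 for the 4T1 pairs, but 0 and 43 for liver against lung metastases of M6.

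Members, and 24 gene lists set beside them, were chosen with earlier results of these data known, and genes nearest in pattern were the 5 with the highest Pearson r among genes at 5 RPKM or more. Alternatives were a pseudocount of 0.1, no filter, rescaling by median ratio, no block, each library alone and leaving out samples. Those on 1 library series, on single tumours that stand apart and on M6 and Mvt1 mice were added after seeing the data.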

Additional observations from a re-analysis of the deposited data

Results flagged for a closer look

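A sample lay far from the rest of its group, by Dixon's test of the highest and lowest value, in 34 of 390 combinations of member and group, or 8.72%, where chance gives about 1 in 20.

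Of the members 7 stood out in 1 tumour of 67NR, replicate 2. There B2m was at 2348 RPKM, Tap1 at 19.5, Tap2 at 10.6, Psmb8 at 32.3, Psmb9 at 26.3, Psmb10 at 24.4 and Nlrc5 at 7.99, each the highest of 6. Its Ptprc, at 20.0 RPKM against 10.1 to 14.0, was the highest as well.

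In lung metastases, B2m was far above the other mice in 1 M6 mouse (6092 RPKM) and in 1 Met1 mouse (9955), and far below in 1 Mvt1 mouse (1841). Psmb10 of M6 reached 86.0 RPKM in the same M6 mouse, and Tapbp 113 in 1 tail vein metastasis of 4T1. In the PyMT models a high value stood alone for H2-D1 in BL10 (492), Tap1 (24.5) and Psmb10 (49.4) in BL6, Tap1 in CAST (21.3), and Psmb10 (62.0) and Nlrc5 (1.58) in MOLF.

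Among primary tumours, high values stood alone for B2m (4085 RPKM) and Tap2 (42.3) in 4T07, for B2m (1438) and Psmb8 (130) in D2A1, for H2-K1 in HRM1 (240), for H2-K1 (656) and H2-D1 (479) in PyMT BL10 and for Tap2 in PyMT CAST (33.4). The lowest of 4 EMT6 tumours stood alone for Tap1 (53.4), Tap2 (28.0) and Psmb9 (153).

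In cultures H2-D1 was low in 1 of 4 4T07 cultures (238 RPKM), Tapbp high in 1 of them (34.4) and Psmb10 high in 1 of 4 67NR cultures (4.00). In tissue without tumour Psmb10 was low in 1 healthy lung (29.8) and H2-K1 high in 1 adjacent liver of M6 (173).

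Tap1 was lower in the metastasis than in the tumour in all 6 mice of Mvt1 (mean log2 difference -0.13) and higher in all 6 of 6DT1 (0.35) and of M6 (1.16). The difference between these models was not tested.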

How the results depend on the processing

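Of 148 alternatives for the number of members called, 136 stayed within 1.5 times the reported number. Without the filter on low values, 4T1 metastases had 1 called member, the M6 and BL10 metastases and the 6DT1 route comparison 0, and MOLF tumours 1. Rescaling by the median ratio left 1 in MOLF tumours and 0 in adjacent lung. It also reversed members in M6 liver metastases against adjacent liver, to -1.77 for B2m, -1.09 for H2-K1, -0.79 for H2-D1, -0.49 for Psmb10 and -0.29 for Nlrc5. That comparison is the one in which most genes were higher. Within 1 library series BL6, CAST and MOLF tumours had 0 called members, cultures of 4T1 and 4T07 differed in 10, and Tap1 between 4T1 and 67NR cultures reversed to -0.95. Fewer samples enter these fits. Without the pairing of mice as a block, 6DT1 metastases had 3 called members. No other count of calls moved by over 1.5 times without the block.

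Leaving out 1 sample at a time gave 0 to 2 called members for M6 metastases, 2 to 7 for the Mvt1 route, 0 to 0 for the 6DT1 route, 0 to 3 for liver against lung metastases of M6, 0 to 1 for adjacent lung and 1 to 3 for PyMT FVB metastases against healthy lung. Without the FVB tumour labelled MOLF, BL10 had 2 and MOLF 1. The cause of these shifts was not tested. Averages over animals and over libraries differed for 100 group levels, by at most 1.21-fold. Depth limits Nlrc5, Psmb8 and Psmb9 in cultures near 0 RPKM.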
